A study of Rattus norvegicus with 4 samples.

Results

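Expression of 10 genes around the transcription factor NF-kappaB was followed in the rat striatum after gamma knife irradiation: the NF-kappaB subunit genes Nfkb1, Nfkb2 and Relb, the inhibitors and modulators Nfkbia, Bcl3 and Tnfaip3, the kinase gene Ikbke, and the adhesion molecule genes Icam1, Vcam1 and Sele. The genes were chosen by role and from earlier results of these same arrays, in which Bcl3 and Icam1 had already been seen above control, so every value below is a description and none is a test. A gene was measured where the platform annotation assigned a feature to that 1 gene alone. By that rule 8 of the 10 genes had 11 probes among the 43628 features, and they are 8 of 14878 genes measured in all. Relb and Tnfaip3 had no probe in that annotation and were not analysed here.

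The animals were adult male Wistar rats, an outbred strain, 4 in the study. A central maximum of 60 Gy had been given over 30 min to the striatum of 1 side through a 4 mm collimator, under pentobarbital, and the striata, the input nuclei of the basal ganglia, were dissected 16 h later. For the irradiated side, 2 two-colour Agilent arrays compared left striatum of irradiated rats with left striatum of controls. For the other side, 2 more compared un-irradiated right striatum from irradiated rats with right striatum of controls. The sources used here do not say how many rats stand behind each RNA or how the control rats were handled. The dye of the experimental RNA was Cy5 on the first array of a side and Cy3 on the second. Source names and replicate number are shared within a side, so its arrays were treated as dye-swapped repeats of the same RNAs. With 1 replicate a side, no test between animals was possible, and no p-value is given.

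All values are on the log2 scale, experimental divided by control RNA, so that 1 is a doubling. Deposited values were read as log10 of Cy5 over Cy3, and the sign was reversed where the experimental RNA was in Cy3. A mean is over the 2 arrays, and ± gives how far each array lies from that mean, a technical distance with no variation between animals in it. The rule for calling a gene higher or lower was a change beyond 1.5-fold (0.585 on this scale) on both arrays of a side, in 1 direction. Neither the log base nor the direction is stated with the table. Opposite dyes would give the arrays of a side opposite signs for a changed gene, yet over all features the deposited ratios correlated positively. For the left pair of arrays r was 0.743 and for the right pair 0.666, with rank correlations of 0.233 and 0.260. Of the 11 member probes 3 changed sign with the dye on the left and 6 on the right, those of Bcl3 and Icam1 on both sides. If the deposited ratios already ran one way, Bcl3 would read -0.0097 on the left and 0.048 on the right. No member would then pass on the left, Sele (lower) would be the 1 to pass on the right, and Ikbke would be highest of the 8 on both sides, at 2.09 and 2.0. Every direction and rank below rests on the turned reading. The file holds ratios alone, so no transcript's level, and no tissue marker's presence, can be read from it. In tissue RNA of this kind, fewer cells of a type and less RNA per cell cannot be told apart.

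As background, NF-kappaB is a family of dimers held in the cytoplasm by IkB proteins. Signals from cytokine receptors, Toll-like receptors or DNA damage activate IkB kinases, the IkB protein is degraded, and the dimer enters the nucleus, where it binds kappaB sites. Among its targets are genes that end the response, such as Nfkbia and Tnfaip3, and genes that endothelial cells use to capture leukocytes from blood: E-selectin (Sele) slows the cell, and Icam1 and Vcam1 bind its integrins. In resting brain the blood-brain barrier endothelium carries little of these adhesion molecules.

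With array 2 turned, Bcl3 was highest of the 8 on both sides. It encodes an atypical IkB protein that works in the nucleus, where it binds dimers of p50 or p52, the products of Nfkb1 and Nfkb2, and can turn them into activators. In the irradiated striatum its 1 probe read 2.38 on array 1 and 2.40 on array 2, a mean of 2.39 ± 0.01 or 5.24-fold. On the un-irradiated side the same probe read 1.42 and 1.33, a mean of 1.37 ± 0.05 or 2.59-fold. All 4 readings were past the 1.5-fold line, and those of the left lay above those of the right on both arrays. In the same reading the mean ranked, among 14878 genes, 9th from the top on the left and 125th on the right. As deposited, the Cy5 over Cy3 ratio of this probe turned with the dye swap from 2.38 to -2.40 on the left, and on the right from 1.42 to -1.33. Left minus right, computed between arrays with matching dyes, was 0.96 on array 1 and 1.07 on array 2, past the rule.

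Icam1, the immunoglobulin-type ligand of the leukocyte integrins LFA-1 and Mac-1, was the other member past the rule on the left. Its probe read 0.87 and 0.83 there, a mean of 0.85 ± 0.02 or 1.80-fold. On the right it read 0.59 and 0.17, a mean of 0.38 ± 0.21, with array 1 at the 1.5-fold line and array 2 below it, so it did not pass. All 4 readings were above 0. Left minus right was 0.28 on array 1 and 0.66 on array 2 and did not pass, so the data do not place the left above the right beyond this rule. The mean ranked 248th of all genes on the left and 1463rd on the right.

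The promoter windows of the members that passed and of a pair that did not are printed here, to show where letters of the kappaB motif do and do not lie near the start. Each runs from 250 bases before to 50 after the transcript start in RefSeq, on the GRCr8 build, 5′ to 3′ on the gene's own strand. Capitals mark, on either strand, GGG and CC separated by any 5 bases, the degenerate kappaB consensus, which is a subset of that motif, and GGAAANTCC, a shorter variant that overlaps both and was added after the windows had been seen. The Bcl3 window is chr1:88613506-88613805 on the minus strand, that of Icam1 chr8:27829595-27829894 on the plus strand, that of Vcam1 chr2:206742734-206743033 on the minus strand and that of Nfkbia chr6:78597023-78597322 on the minus strand.
Bcl3: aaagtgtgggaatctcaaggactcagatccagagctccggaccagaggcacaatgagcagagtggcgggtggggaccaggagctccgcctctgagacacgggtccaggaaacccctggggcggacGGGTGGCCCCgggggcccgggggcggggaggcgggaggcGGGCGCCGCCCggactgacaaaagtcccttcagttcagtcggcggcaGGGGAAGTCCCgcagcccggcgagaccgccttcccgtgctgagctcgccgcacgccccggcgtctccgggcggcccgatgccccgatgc
Icam1: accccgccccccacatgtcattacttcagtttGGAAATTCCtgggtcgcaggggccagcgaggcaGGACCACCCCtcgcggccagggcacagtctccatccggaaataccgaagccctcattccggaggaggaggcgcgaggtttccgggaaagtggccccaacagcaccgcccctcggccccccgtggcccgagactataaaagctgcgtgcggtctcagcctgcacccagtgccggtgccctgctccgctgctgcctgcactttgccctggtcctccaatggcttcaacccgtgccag
Vcam1: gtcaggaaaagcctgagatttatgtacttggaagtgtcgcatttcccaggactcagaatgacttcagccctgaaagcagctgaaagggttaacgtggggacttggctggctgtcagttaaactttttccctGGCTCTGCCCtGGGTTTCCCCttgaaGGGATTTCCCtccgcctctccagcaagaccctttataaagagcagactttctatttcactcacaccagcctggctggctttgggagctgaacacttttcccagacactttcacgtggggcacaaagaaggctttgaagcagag
Nfkbia: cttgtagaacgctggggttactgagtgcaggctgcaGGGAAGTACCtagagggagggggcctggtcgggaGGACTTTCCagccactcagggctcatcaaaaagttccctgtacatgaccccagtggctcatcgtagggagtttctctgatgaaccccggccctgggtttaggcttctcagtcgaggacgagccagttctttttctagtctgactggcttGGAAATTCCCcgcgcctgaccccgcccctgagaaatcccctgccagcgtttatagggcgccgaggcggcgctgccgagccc

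The Bcl3 window held the degenerate consensus once, from -38 to -29, as GGGACTTCCC on the opposite strand. In Icam1 it was not found, and GGAAATTCC lay from -218 to -210. Vcam1 held the consensus from -93 to -84 as GGGATTTCCC, and its complement matches as well. Nfkbia held it from -31 to -22 as GGGAATTTCC on the opposite strand, and there it overlaps GGAAATTCC from -31 to -23. Letters of this kind thus stood in the windows of Bcl3, which passed on both sides, and in those of Vcam1 and Nfkbia, whose values, given further on, passed on neither.

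Of the 10 genes, 8 had a window in the RefSeq table, all but Relb and Ikbke. Among these, 7 held GGG and CC separated by any 5 bases, 6 the degenerate consensus and 5 GGAAANTCC. Over all 33469 windows of that length the shares were 47.3%, 4.18% and 1.28%. The Sele window held none of the 3, which says only that these letters are not in that window. The members were chosen as NF-kappaB genes, so the counts describe the list.

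**Figure D1:**
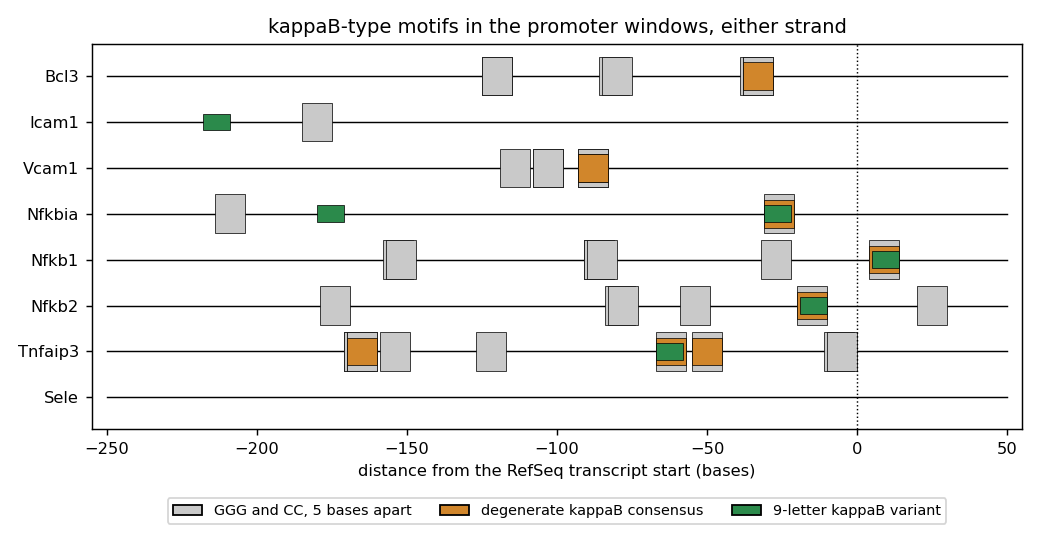
Position of the 3 motifs on either strand in the promoter windows of 8 members, in bases from the RefSeq transcript start (dotted line), with grey for GGG and CC separated by 5 bases, orange for the degenerate consensus and green for the shorter variant. Bcl3, Vcam1, Nfkbia, Nfkb1, Nfkb2 and Tnfaip3 each hold an orange box, Icam1 holds a green and a grey box, and Sele none.

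The count was thus 2 of 8 members higher and 0 lower on the left, where 1.18% of all genes were higher and 1.03% lower. On the right 1 of 8 was higher and 0 lower, where 1.71% of all genes were higher and 1.46% lower. In left minus right 2 of 8 were higher and 0 lower, against 2.59% and 2.26% of all genes. Because the members were picked with these values known, nothing is read from the counts. The median of the 8 was 0.15 on the left and 0.01 on the right, beside medians of 0.00 and -0.01 over all genes.

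**Figure D2:**
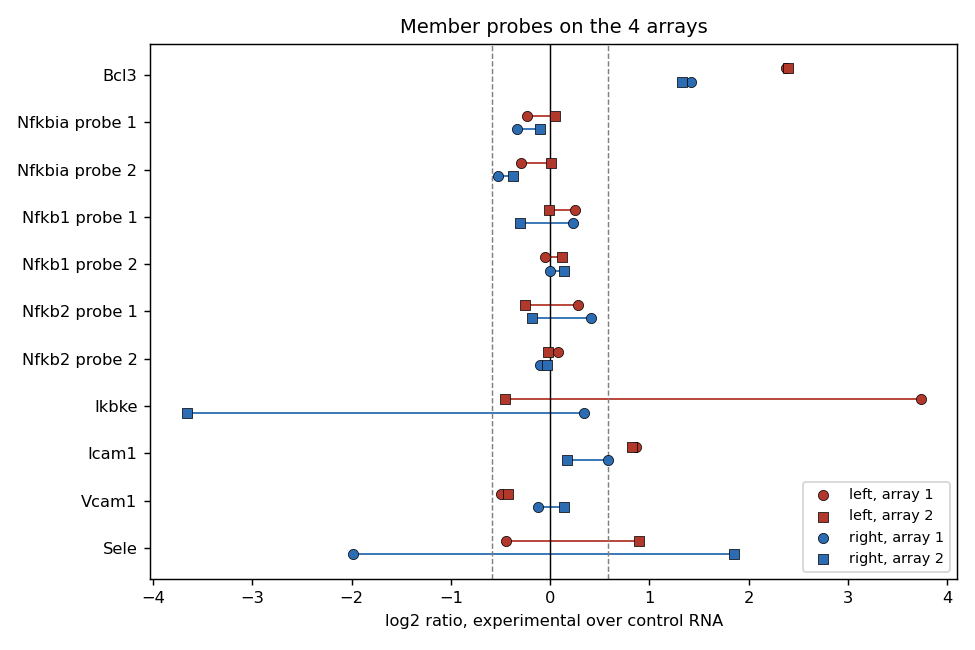
Log2 ratio of experimental over control RNA for each of the 11 probes on the 4 arrays (circles array 1, squares array 2, red left, blue right), with a line joining the arrays of a side and dashed lines at 1.5-fold. Bcl3 lies past the dashed line on all 4 arrays and Icam1 on both left arrays, whereas the arrays of Ikbke and Sele lie on opposite sides of 0.

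Transcripts of Nfkb1 and Nfkb2, which encode the subunits that Bcl3 binds, stayed near control on both sides, and the proteins were not measured. Nfkb1, whose precursor protein p105 is processed to p50, read 0.10 and 0.05 on the left and 0.11 and -0.08 on the right as the mean of its 2 probes. Nfkb2, whose precursor p100 is processed to p52, read 0.18 and -0.14 on the left and 0.15 and -0.11 on the right. Over all readings of the probes of these genes the highest was 0.41 and the lowest -0.30, so none reached 1.5-fold. The Nfkb1 probes had left means of 0.12 and 0.04 and right means of -0.04 and 0.07. Those of Nfkb2 had left means of 0.01 and 0.03 and right means of 0.12 and -0.07.

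Nfkbia encodes IkB alpha, the inhibitor that is itself a rapid target of NF-kappaB. Its gene mean was -0.27 and 0.03 on the left arrays and -0.43 and -0.24 on the right arrays. The left mean of -0.12 ± 0.15 spanned 0, while the right mean of -0.33 ± 0.10 lay below 0 on both arrays without reaching the rule. Its 2 probes differed little on the left, with means of -0.10 and -0.14, and more on the right, with -0.21 and -0.45. On the right 13.6% of all genes had a lower mean, so Nfkbia sat in the lower part of the distribution on the side where Bcl3 ranked 125th.

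Vcam1, the endothelial ligand of the integrin VLA-4, read -0.49 and -0.42 on the left, a mean of -0.46 ± 0.04, and -0.12 and 0.14 on the right, a mean of 0.01 ± 0.13. Both left readings lay below both right readings, and Vcam1 and Icam1 lay on opposite sides of 0 on the left. The left value did not pass at 1.5-fold and did at a lower line of 0.322 on the log2 scale, which makes Vcam1 the member nearest below the rule on that side as Icam1 is the nearest above it. Left minus right was -0.37 on array 1 and -0.57 on array 2, again short of the rule and past the lower line.

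For Sele and Ikbke the dye swap arrays contradicted each other. Sele, E-selectin, read -0.44 and 0.89 on the left and -1.98 and 1.86 on the right, so each side held a negative and a positive reading. Its right mean of -0.06 ± 1.92 had a distance between arrays larger than that of 98.7% of genes. As deposited, its Cy5 over Cy3 ratio was below 0 on all 4 arrays. No change of Sele in either direction can be read from these arrays.

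Ikbke encodes IKK epsilon, a kinase related to the IkB kinases that also acts in the interferon response. It read 3.74 and -0.45 on the left and 0.34 and -3.66 on the right, which gives means of 1.64 ± 2.09 and -1.66 ± 2.0. The distance between arrays was larger than that of 99.6% of genes on the left and 98.9% on the right, and neither side passed. Left minus right nevertheless passed the rule, at 3.39 on array 1 and 3.21 on array 2, and ranked 4th of all genes. As deposited, its Cy5 over Cy3 ratio was above 0 on all 4 arrays, at 3.74, 0.45, 0.34 and 3.66, so the high readings came from left array 1 and right array 2. Genes with a Cy5 over Cy3 ratio above 3 on the log2 scale numbered 41 on left array 1, 11 on left array 2, 56 on right array 1 and 111 on right array 2, against 0, 1, 4 and 0 genes below -3. The part that this dye-linked tail has in the Ikbke difference was not tested.

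**Figure D3:**
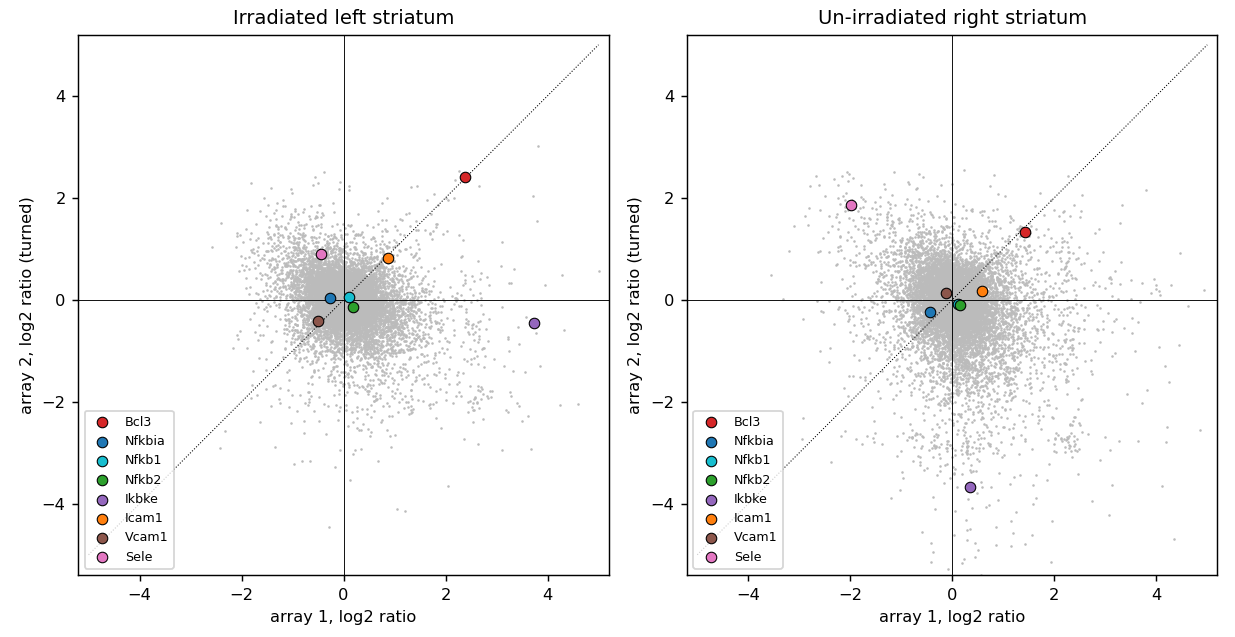
Array 1 against array 2 after turning, in log2 ratio, for all 14878 genes (grey) and the 8 members (coloured), with the dotted line where both arrays read the same. Bcl3 lies on that line on both sides and Icam1 on the left, whereas Ikbke and Sele lie far from it.

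**Figure D4:**
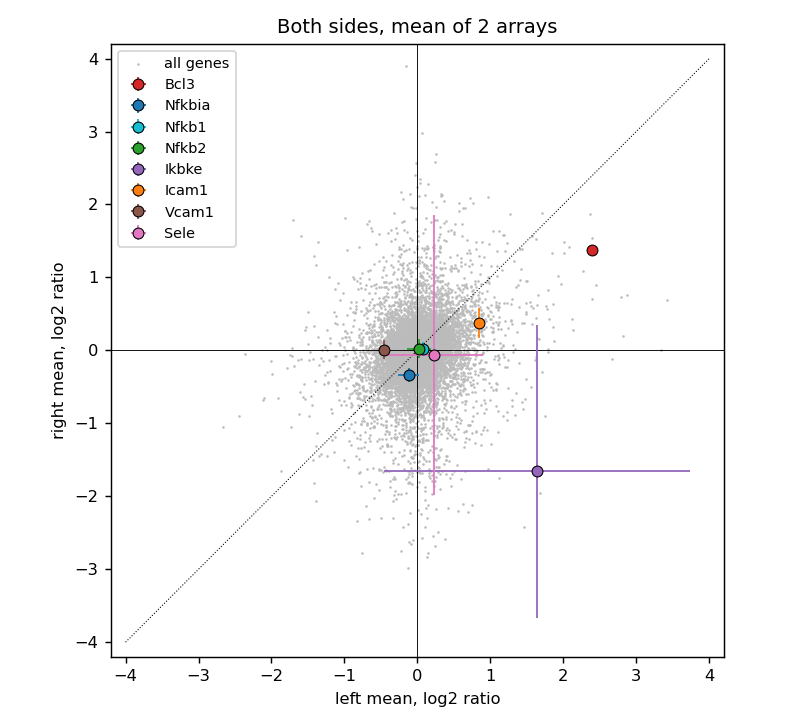
Mean log2 ratio of the left against that of the right for all genes (grey) and the members (coloured), with bars that reach to either array. Bcl3 stands apart at 2.39 and 1.37, Nfkb1 and Nfkb2 lie at the origin, and the bars of Ikbke and Sele cross 0 on both sides.

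Over the 4 arrays, the genes nearest to Bcl3 by Euclidean distance among the other 14877 were Fas, a death receptor and p53 target, at 0.42, the chemokine gene Ccl3 at 0.47 and the phospholipase gene Pla1a at 0.47. Fas read 2.26, 2.53, 1.81 and 1.28, and Ccl3 read 2.17, 1.99, 1.52 and 1.31, in the order left array 1, left array 2, right array 1, right array 2. Pla1a read 2.18, 2.35, 1.03 and 1.16 in the same order. Each was past 1.5-fold on all 4 arrays with the left above the right, which follows from being chosen as near to Bcl3 on these same values. The genes nearest to Icam1 were Plekha4 at 0.18, the interferon-induced transmembrane gene Ifitm7 at 0.20 and the peptide transporter gene Slc15a1 at 0.22. These distances rest on 4 arrays of 2 RNA pairs and describe likeness of values alone.

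The wider pathway was read from 10 lists arranged by role, which held 127 measured genes beside the members. On the left 7 of the 127 were higher and 1 was lower, beside 1.18% and 1.03% of all genes. On the right 3 were higher and 2 lower, beside 1.71% and 1.46%. In left minus right 7 were higher (Irak3, Traf1, Tnfrsf1a, Ccl2, Cxcl10, Bcl2a1 and Itgb7) and 4 lower (Irak1, Il1rap, Lcn2 and Madcam1), beside 2.59% and 2.26%. The lists were drawn up with results known, so nothing is read from these counts. The median of the 127 was 0.04 on the left and -0.02 on the right, close to that of all genes.

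Ligands, receptors, adaptors and kinases lie upstream of NF-kappaB. Among 9 ligands the interleukin 1 beta gene Il1b was the 1 past the rule on the left, at 1.07 and 1.09, and none was on the right. There Il1b was highest of the list at 1.07 and 0.13. Tnfsf11, the RANK ligand gene, was lowest there at -0.58 and -1.16, its first array just short of the 1.5-fold line. The 3 Il1b probes disagreed, with left means of 2.13, 0.10 and 1.0 and right means of 0.89, 0.33 and 0.58. The second of each is from the probe that is not a RefSeq mRNA probe. Tnf, the classical inducer of the endothelial response, had arrays on opposite sides of 0, with means of -0.10 ± 0.60 and 0.05 ± 0.56. Of 15 receptors none passed on the left, where the list's median was 0.24. On the right Nod2, a sensor of bacterial cell wall fragments, was lower, at -0.81 ± 0.12. The left means ran from -0.33 ± 0.24 for Nod2 to 0.81 ± 0.33 for the tumour necrosis factor receptor gene Tnfrsf1b, whose arrays read 1.14 and 0.48. The other receptor gene for this cytokine, Tnfrsf1a, whose left arrays read 0.70 and 0.50, did not pass as a mean of 2 probes. Its RefSeq mRNA probe read 0.89 and 1.26 there and its other probe 0.52 and -0.25, and left minus right passed at 0.85 and 0.87.

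Of 18 adaptors and ubiquitin ligases, Birc3, an inhibitor of apoptosis that ubiquitinates proteins in this pathway, was higher on the left, at 1.01 ± 0.25. On the right it read 1.03 and 0.02 and did not pass, and the adaptor means there ran from -0.95 ± 1.03 for Myd88 to 0.55 ± 0.10 for Tradd. Of 12 kinases, Irak3, which dampens Toll-like receptor signalling, was higher on the left at 0.92 ± 0.31, but its 2 probes had means of -0.13 and 1.98. The core IkB kinase genes Chuk, Ikbkb and Ikbkg had left means of 0.07 ± 0.34, 0.02 ± 0.23 and -0.02 ± 0.09. Their right means were -0.15 ± 0.39, -0.07 ± 0.24 and -0.37 ± 0.34. None of the 3 passed on either side, and the right means of the kinase list ran from -0.47 ± 0.03 for Tab2, a kinase adaptor, to 0.74 ± 0.16 for Irak1. The 3 Irak1 probes disagreed, with left means of -0.24, -0.56 and -0.10 and right means of 1.37, 0.92 and -0.05. The last of each is from its RefSeq mRNA probe. The Tab2 probes had right means of -0.65 and -0.29, the second from its RefSeq mRNA probe.

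Of 11 further inhibitors none passed on either side. Their left means ran from -0.08 for Zc3h12a, an RNA-degrading enzyme, to 0.39 for Tnip2, a partner of A20. Their right means ran from -1.46 for Zc3h12a to 0.30 for Nfkbiz, which like Bcl3 encodes an atypical IkB protein that acts in the nucleus. The Zc3h12a arrays read -0.55 and -2.37 there, over probes that disagreed. Its RefSeq mRNA probe had a right mean of -0.08 and its other probe -2.83. Nfkbiz had a left mean of 0.12 ± 0.10, over probes that disagreed, with left means of 0.60 and -0.37 and right means of 0.64 and -0.04. Rela, the main activating subunit, had arrays on opposite sides of 0 and means of -0.26 ± 0.75 and -0.37 ± 0.84. Of 7 genes listed under NF-kappaB signalling after DNA damage, Atm and Parp1 among them, none passed. The list is not limited to genes that act on IkB kinase. The left means ran from -0.22 ± 0.25 for the ubiquitin ligase gene Rnf8 to 0.14 ± 0.12 for the excision repair gene Ercc1. The right means ran from -0.10 ± 0.06 for Parp1 to 0.14 ± 0.05 for Ercc1.

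Among 26 other classical targets, 4 were higher and 0 lower on the left, with a list median of 0.16, and 1 was higher on the right, with a median of 0.01. The chemokine gene Cxcl1, which draws neutrophils, read 1.72 and 1.69 on the left but 1.68 and -2.28 on the right. The macrophage growth factor gene Csf1 read 0.88 and 0.87 on the left and 0.56 and 0.43 on the right, with both of its probes alike. Complement C3 stood at 0.79 ± 0.02 on the left, the mean of a probe at 1.55 and a probe at 0.02. On the right it read 0.83 and 0.52 and did not pass, while its RefSeq mRNA probe alone read 1.40 and 1.30. The chemokine gene Ccl2 stood at 1.66 ± 0.17 on the left, over probes with means of 4.33, 0.72 and -0.06. On the right it read 1.05 and -0.74, while its RefSeq mRNA probe alone read 2.40 and 1.22. The chemokine gene Cxcl10 had the highest left mean of the list, 1.81 ± 1.48, but its arrays read 3.29 and 0.33, so it did not pass. Its RefSeq mRNA probe read 2.54 and 2.80 there and its other probe 4.03 and -2.15. On the right the Cxcl10 arrays read 1.80 and -0.93. The iron-binding lipocalin gene Lcn2 was the target higher on the right, at 1.16 ± 0.10, beside 0.09 ± 0.03 on the left. Its probes disagreed, with right means of 0.33 and 1.98 and left means of 0.79 and -0.60. With RefSeq mRNA probes alone Lcn2 did not pass on the right, and C3 and Ccl2 did.

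**Figure D5:**
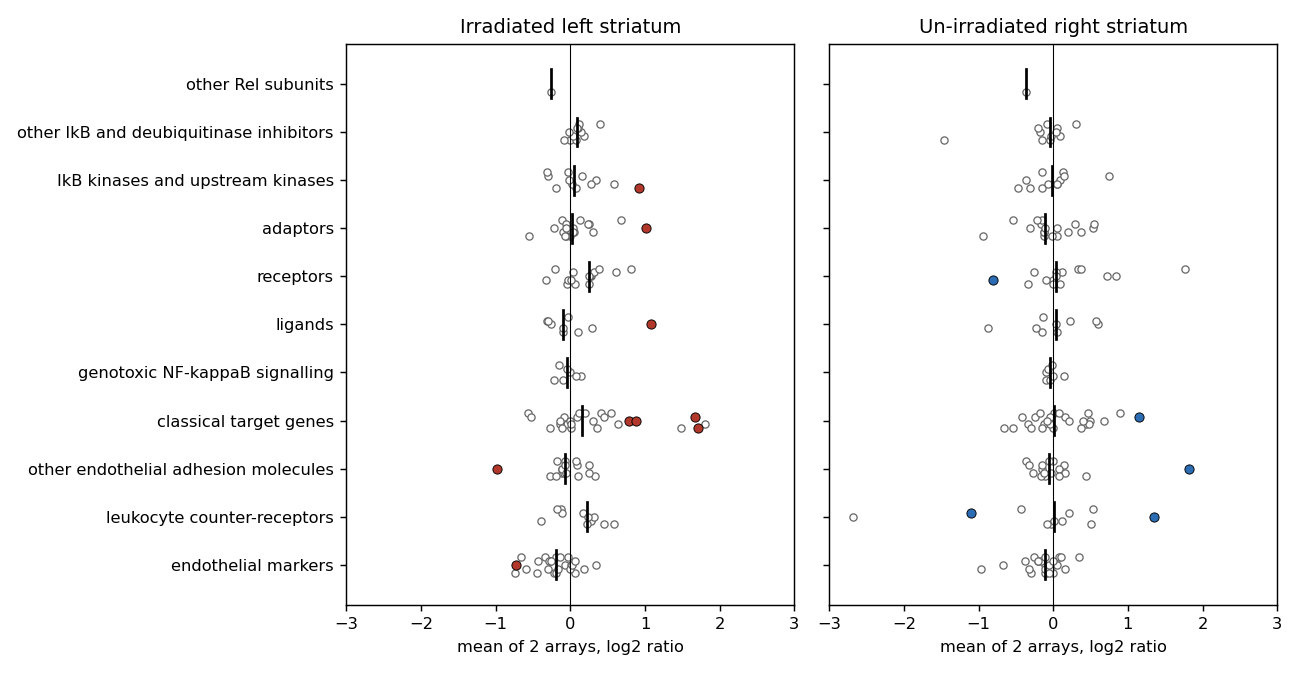
Mean log2 ratio of each gene in the 10 pathway lists and in the endothelial marker list, left and right, with filled points for genes past 1.5-fold on both arrays, open points for the others and a bar at the list's median. Classical targets hold 4 filled points on the left, and the medians lie between -0.37 and 0.24.

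Adhesion was read on both the vessel and the leukocyte side. Of 17 further endothelial adhesion molecules, Madcam1, a ligand of gut-homing lymphocytes, was lower on the left, at -0.97 and -1.0, and higher on the right, at 2.88 and 0.75. P-selectin (Selp) read 0.74 and -0.84 on the left and 0.27 and -0.82 on the right, opposite between arrays as Sele was. Icam2, the constitutive endothelial relative of Icam1, had a left mean of 0.08 ± 0.43 and a right mean of -0.15 ± 0.11, short of the rule.

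Of 11 leukocyte counter-receptors none passed on the left, where means ran from -0.39 ± 0.10 for Itgb1, a chain of VLA-4, to 0.58 ± 0.13 for the hyaluronan receptor gene Cd44. The chains of the Icam1 ligand LFA-1, Itgal and Itgb2, had left means of -0.13 ± 0.28 and 0.24 ± 0.01. The 2 Itgal probes disagreed, with left means of 0.45 ± 1.05 and -0.71 ± 0.48. On the right Itgb2 read -0.09 and -5.27, so its arrays disagreed. Itga4, a chain of the Vcam1 ligand VLA-4, was higher on the right at 1.36 ± 0.11, and read -0.17 and 0.79 on the left. Itgb7, the chain that pairs with it to bind Madcam1, was lower on the right at -1.10 ± 0.22.

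Markers of the cells that carry these molecules are given beside them, and their part in the Icam1 and Vcam1 values was not tested. Of 25 endothelial markers 0 were higher and 1 was lower on the left, the transferrin receptor gene Tfrc at -0.73 ± 0.02, with a range from -0.74 to 0.34 and a median of -0.20. On the right 0 passed and the median was -0.11. Of the 25 means, 6 were above 0 on the left and 5 on the right. Single markers were named after their values were seen. On the left the tight junction gene Cldn5 stood at -0.43 ± 0.01 and the VE-cadherin gene Cdh5 at -0.08 ± 0.06. The endothelial nitric oxide synthase gene Nos3, at 0.34 ± 0.04, lay at the upper end of the range. Of 22 blood leukocyte markers 1 was higher on the left (Cd3e, of T cells, at 0.83 ± 0.12) with a median of 0.00, and on the right 1 was higher and 1 lower with a median of 0.06. Pan-leukocyte Ptprc had means of -0.09 ± 0.06 and -0.59 ± 0.31.

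Of 16 microglia markers 4 were lower on the left and 2 on the right, with medians of -0.39 and -0.15. Of 10 astrocyte markers 1 was higher and 1 lower on the left and 1 higher on the right, with medians of -0.34 and -0.03. Pericyte markers (8, medians -0.31 and -0.11) and erythroid markers (5, medians 0.01 and -0.16) had none past the rule. The right side differed from its control in regional markers: 7 of 12 striatal projection neuron markers were lower, 5 of 9 cortex markers higher and 4 of 12 meningeal and fibroblast markers higher, against 1 lower, 1 lower and 3 lower on the left. The part of this in the right-hand values of the members was not tested.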

How the data were processed

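Total RNA of left and right striata was measured on 4 two-colour Agilent rat arrays. Per the labels and the submitters' processing notes, the authors scanned them and used Agilent Feature Extraction 8.1; the sources used here do not state background correction, dye normalization or probe filters. The deposited table holds 43628 features with 0 missing values, read as log10 ratios of Cy5 over Cy3. Their medians on the log10 scale were 0.0042 and 0.0044 on the left and 0.0083 and 0.011 on the right. As deposited, the arrays of a side correlated at 0.743 and 0.666, with rank correlations of 0.233 and 0.260, over features; scale, centring and direction are not stated. Values were converted to log2 and turned by the dye named in the labels.

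Gene names came from the GEO annotation of the platform, updated by Entrez identifier to RefSeq GRCr8: 23535 features had 1 gene, 48 had several and 20045 had none, and 23488 were found in RefSeq. A gene's value is the mean over its probes. The number of arrays limits the precision, and no depth applies.

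The members and the 10 pathway and 9 marker lists were chosen with earlier results of these data known. Named genes were all members with a probe, pathway genes past 1.5-fold on a side, the highest and lowest of lists with none, and the 3 genes nearest to each member that passed. Further genes named for their role (Tnf, Tnfrsf1a, Chuk, Ikbkb, Ikbkg, Selp, Icam2, Itgal, Itgb2, Atm and the markers) or for passing in left minus right were added after their values were seen. The calling code was tested on simulated dye swaps in which each gene had a single probe. That checks the code, and not how the rule behaves with the dye-linked tail or the disagreeing probes of these arrays. Python 3.11.15, pandas 2.3.3 and numpy 2.4.6 were used.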

Additional observations from a re-analysis of the deposited data

How the results depend on the processing

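Of the 11 alternatives, the median over probes, the probe with the closest arrays, RefSeq mRNA probes alone and centring each array kept Bcl3 and Icam1 past the rule on the left, Bcl3 on the right, and Bcl3 and Ikbke in left minus right. At 2-fold 1 member passed on the left (Bcl3), 1 on the right (Bcl3) and 1 in left minus right (Ikbke). At that line 3 and 2 pathway genes passed on the left and right. At the lower line of 0.322 log2, 18 pathway genes passed on each side. With only the mean required to pass, Ikbke was added as higher on the left and as lower on the right, where 2 members then passed, and 15 and 17 pathway genes on the left and right. On array 1 alone 3 members passed on the left, with Ikbke higher, 3 on the right, with Icam1 higher and Sele lower, and 31 and 37 pathway genes on the left and right. On array 2 alone 3 members passed on the left, with Sele higher, 3 on the right, with Ikbke lower and Sele higher, 4 in left minus right, and 27 and 28 pathway genes on the left and right. Read as log2, the deposited values left 1 member on the left (Bcl3 at 0.72), 0 on the right (Bcl3 at 0.41), 1 in left minus right (Ikbke) and 0 pathway genes on either side. If array 2 was already turned, 0 members passed on the left (Bcl3 at -0.0097), 1 on the right (Sele lower, Bcl3 at 0.048) and 1 in left minus right (Sele). Then 6 pathway genes passed on the left and 8 on the right. The 8 and 5 genes that passed in the turned reading could not be among them, because leaving array 2 unturned reverses its sign. With RefSeq mRNA probes alone Cxcl10 and Tnfrsf1a were added on the left, and on the right Lcn2 was lost and C3 and Ccl2 added. With the median over probes Ccl2 was lost on the left and Irak1 added on the right. Centring added Irak1 and Tnfsf11 on the right. With the probe with the closest arrays C3 and Irak3 were lost and Cd44, Cxcl10, Myd88, Spn and Tnfrsf1a added on the left, and Lcn2 was lost and C3 and Myd88 added on the right. No paired analysis was possible because each side has 1 replicate and no test was made.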
